A study of Ciona robusta with 6 samples.

Results

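The receptors described here are 7 gene models of *Ciona robusta*, a tunicate, that encode or match G protein-coupled receptors for peptide hormones and neuropeptides, with an orphan receptor among them. They are *Rxfp3* (KH2013:KH.C1.467), a gene that matches human *RXFP1* (KH2013:KH.C3.183), *Calcr* (KH2013:KH.C3.635), *Nmur* (KH2013:KH.C5.614), a gene that matches insect *CCKLR* (KH2013:KH.C14.565), a gene that matches *GNRHR* (KH2013:KH.C3.616) and *Gpr22* (KH2013:KH.L139.24). They were taken by their gene model numbers, 7 of the 15232 gene models in the table of counts. All 7 were among the 12253 genes that had over 1 count per 1000000 (CPM) in at least 2 libraries, so no receptor was lost to the filter on low counts. Their names rest on similarity to receptors of other animals, and no ligand of theirs was measured.

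Embryos were electroporated with a *Neurog[BTN]* > tagRFP or tagBFP reporter, and cells of the bipolar tail neuron (BTN) lineage that carried its fluorescence were sorted 9.5 hours post-fertilization (hpf) at 20°C. BTNs are migrating neurons of the tail whose fate depends on the transcription factor Neurog. Each embryo also carried another plasmid with the same driver, for *lacZ* (*Neurog* > *lacZ*, the control), for wild-type Neurog (*Neurog* > *Neurog*) or for Neurog joined to a WRPW motif, which recruits a corepressor and makes it a dominant repressor (*Neurog* > *Neurog:WRPW*). Each of the 3 groups had 2 libraries, described by the study as biologically independent. No animal carried a mutation, the sort kept every fluorescent cell with no counterselection, and the driver can also be active in other tissues. The number of cells sorted differed widely between libraries, including libraries of the same group. By the methods of the study, Neurog:WRPW replicate 1 had the most cells of all libraries and Neurog:WRPW replicate 2 the fewest. The study states that only some cells of the lineage become BTNs with lacZ, that all do with Neurog, and that Neurog:WRPW abolishes BTN fate. The groups thus differ by design in their share of BTNs. In bulk samples of this kind, fewer cells that express a gene and less RNA per cell cannot be told apart.

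G protein-coupled receptors cross the cell membrane with a bundle of helices, bind a ligand outside and pass the signal to a heterotrimeric G protein inside. Receptors for relaxin-family peptides, neuromedin U, cholecystokinin and gonadotropin-releasing hormone belong to the rhodopsin-like class. The calcitonin receptor belongs to the secretin-like class, whose members bind longer peptide hormones with a large extracellular domain. An orphan receptor is one with no accepted ligand, as for GPR22 in human. In nervous systems such receptors let neurons respond to peptides released by other neurons or by endocrine cells.

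The templates of the *in situ* hybridization probes for *Gpr22* and *Calcr* are shown here as stretches of 150 bases of the sense strand, since these genes had the smallest standard error and the highest LogFC, respectively, in the comparison with lacZ below. In the *Gpr22* stretch the capitals are the codons of the NPxxY motif, which rhodopsin-like receptors carry near the inner end of their last transmembrane helix. In the *Calcr* stretch, from the end of the reading frame that codes for the intracellular tail, the capitals are the stop codon.
Gpr22: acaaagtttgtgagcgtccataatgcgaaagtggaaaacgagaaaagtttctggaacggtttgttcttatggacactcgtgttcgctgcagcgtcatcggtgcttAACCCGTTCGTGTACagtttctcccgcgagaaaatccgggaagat
Calcr: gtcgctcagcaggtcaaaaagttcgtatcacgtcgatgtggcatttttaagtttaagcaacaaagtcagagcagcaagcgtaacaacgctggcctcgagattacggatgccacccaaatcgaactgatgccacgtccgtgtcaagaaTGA
The reading frame was open over 132 codons of the *Gpr22* template and over 85 codons before the stop in the *Calcr* template, of the 399 bases read from each.

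Library totals ranged from 10315548 to 24499397 counts and the genes detected from 13009 to 14497, with the lowest of both in Neurog:WRPW replicate 2. *Neurog* itself (KH.C6.129) checks the labels of the Neurog libraries. It gave 90.0 and 134 CPM with lacZ, 3931 and 3972 CPM with Neurog and 109 and 190 CPM with Neurog:WRPW. The ranges of lacZ and Neurog:WRPW overlapped (LogFC 0.42, standard error 0.35), so this gene does not check the labels of these groups against each other. The *Neurog* transcripts include those of the electroporated plasmids. The 47 other genes that the study grouped as BTN genes by its ISH, which were chosen from changes in these libraries, summed to 1530 to 2611 CPM in the lacZ libraries, 6380 to 11728 CPM in Neurog and 733 to 1395 CPM in Neurog:WRPW. The genes that it grouped to other parts of the central nervous system or to other tissues were also highest in the Neurog libraries. The 14 of the former summed to 461 to 469 CPM in lacZ, 1519 to 1696 in Neurog and 250.2 to 252 in Neurog:WRPW, and the 13 of the latter to 247 to 274, 635 to 710 and 118 to 143 CPM, and the part of these other cells in the receptor values was not tested. Of the receptors with a probe, the study's ISH grouping has *Gpr22* with the BTN genes, *Calcr* with other parts of the central nervous system, and *Rxfp3* and *Nmur* as unclear.

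In the Neurog libraries 6 of the 7 receptors rose against lacZ, from 3.96-fold for the *CCKLR* match to 17.4-fold for *Calcr*, and none fell. The rule for a call was a LogFC (the difference on the log2 scale) over 0.6 with an unadjusted p under 0.05 in the quasi-likelihood test of edgeR, and 4.36% of the 12253 genes tested passed it upward. The receptors had been picked with results of these libraries known, so the count describes them and does not set them apart from other genes. For all 7 receptors both Neurog libraries lay above both lacZ libraries, which was so for 18.6% of the genes tested. The median LogFC of the 7 was 2.36, beside -0.03 over all genes tested. By the Benjamini-Hochberg adjustment over all genes tested, no receptor reached an adjusted p below 0.05 in this test of edgeR, and neither did any other gene, against 539 genes at an unadjusted p under 0.05 for an increase. With DESeq2, 3 receptors passed that limit (*Rxfp3*, *Calcr* and *Gpr22*), where 1.52% of all genes passed upward. With edgeR's exact test 2 did (*Calcr* and *Gpr22*), beside 1.12% of genes, and with the replicate number as a block the same 2, beside 1.37%. Without lacZ replicate 2 only *Calcr* and *Gpr22* passed the rule, and fewer of all genes tested passed it as well. With 2 libraries against 2, the smallest p that an exact permutation test of a single gene can give is 0.333.

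**Figure D1:**
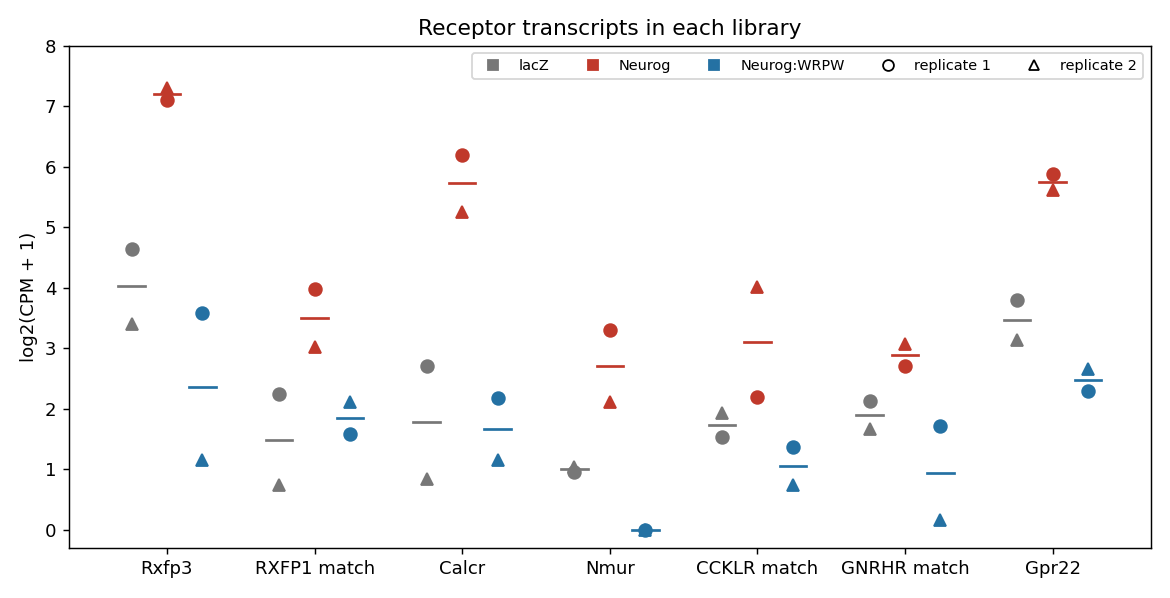
Transcript level of the 7 receptors in each of the 6 libraries, as log2(CPM + 1), with grey for lacZ, red for Neurog and blue for Neurog:WRPW, circles for replicate 1, triangles for replicate 2 and a line at the mean of each pair. For every receptor both Neurog libraries lie above the other 4, and *Nmur* lies at 0 in both Neurog:WRPW libraries.

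In the Neurog:WRPW libraries 2 of the 7 receptors fell against lacZ, *Nmur* and *Gpr22*, and none rose, where 1.19% of the genes tested passed the rule downward. With the replicate number as a block the count was 3 (with *Rxfp3*), and 3.55% of all genes passed. Both Neurog:WRPW libraries lay below both lacZ libraries for 3 receptors (*Nmur*, *Gpr22* and the *CCKLR* match), as for 13.7% of genes tested. The LogFC was below 0 for 6 of the 7 and above 0 for the *RXFP1* match, with a median of -1.14 beside -0.02 over all genes. In edgeR's quasi-likelihood test no gene reached an adjusted p below 0.05 for a decrease, against 149 genes at an unadjusted p under 0.05, and no receptor passed the adjusted limit with DESeq2 or edgeR's exact test, which gave 4 and 2 genes of all. Without lacZ replicate 1 only *Nmur* passed the rule, and fewer of all genes tested passed it downward as well.

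Between the Neurog and Neurog:WRPW libraries, the direct comparison of the activator with the repressor, 5 of the 7 receptors were higher with Neurog, where 7.08% of the genes tested passed the rule. With the block all 7 passed, beside 10.1% of genes. Every Neurog library was above every Neurog:WRPW library for all 7, which held for 20.8% of genes tested, and the median LogFC was 3.52 beside -0.04 over all genes. In edgeR's quasi-likelihood test no receptor passed at an adjusted p below 0.05, where 0.0408% of genes did, but 4 passed with the block (*Rxfp3*, *Calcr*, *Nmur* and *Gpr22*), where 3.25% of genes did. DESeq2 gave 5, beside 3.59% of genes, and edgeR's exact test 4, beside 2.97%. With no filter on low counts *Gpr22* passed in the quasi-likelihood test (adjusted p = 0.0449 by edgeR), beside 0.207% of genes. This comparison shares libraries with both comparisons above and is not independent of them.

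**Figure D2:**
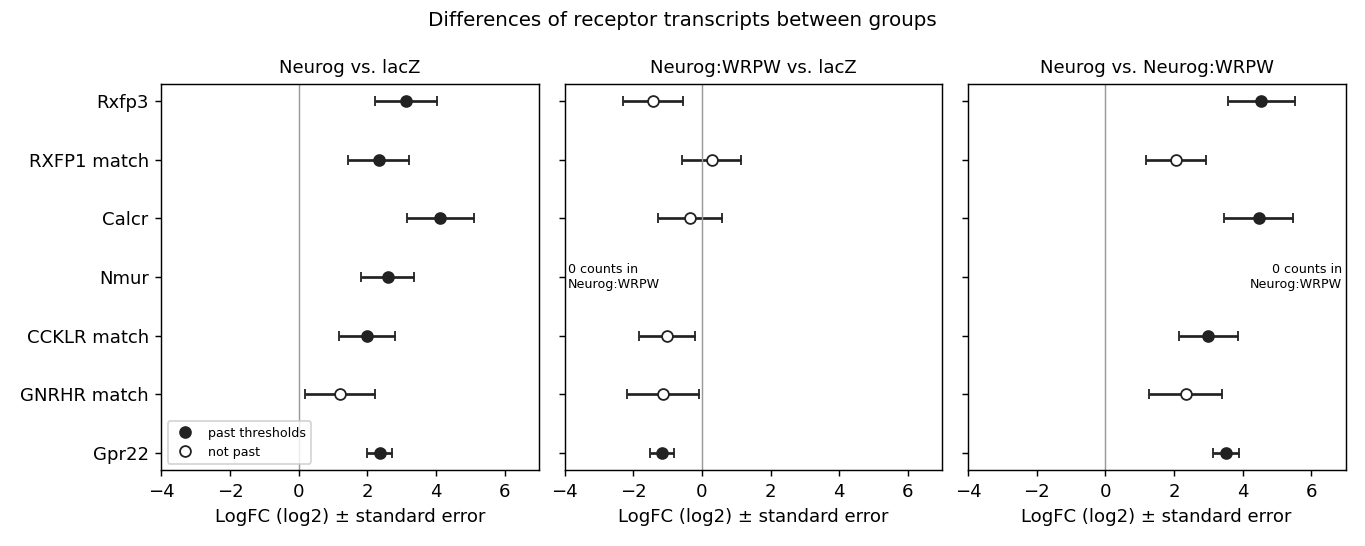
LogFC (log2 scale) of each receptor with its standard error in Neurog vs. lacZ (left), Neurog:WRPW vs. lacZ (middle) and Neurog vs. Neurog:WRPW (right), where filled points passed the thresholds of LogFC and unadjusted p. In the left panel 6 of 7 points are filled and all lie above 0, and *Nmur* has no point where a group had 0 counts.

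*Rxfp3* matches the receptor for relaxin-3, a neuropeptide of the vertebrate brain, and its human matches also include the angiotensin receptor AGTR1 and the opioid receptor OPRM1. Its level was 23.98 and 9.56 CPM in lacZ replicates 1 and 2, 137 and 156 CPM in Neurog and 10.9 and 1.22 CPM in Neurog:WRPW. The Neurog libraries were thus close to each other and far above the rest, while the Neurog:WRPW libraries differed 8.93-fold from each other, with replicate 1 above the lower lacZ library. *Rxfp3* rose 8.74-fold in Neurog vs. lacZ (LogFC 3.13, standard error 0.91, adjusted p = 0.542 by edgeR), and without lacZ replicate 2 the LogFC of 2.61 did not pass the rule. In Neurog:WRPW vs. lacZ the LogFC was -1.41 (standard error 0.87) and did not pass. With the replicate number as a block it did, at -1.55 (standard error 0.64). Without Neurog:WRPW replicate 1, which leaves the library with 11 counts of this gene, it was -3.77 and passed as well. In that setting many more of all genes tested also passed downward than with all libraries. Between Neurog and Neurog:WRPW the LogFC was 4.54 (standard error 0.98, adjusted p = 0.168 by edgeR, and it passed with each library left out).

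The *RXFP1* match stands for the other kind of relaxin receptor, which in mammals carries leucine-rich repeats outside the cell like the receptors for thyrotropin and gonadotropins, and TSHR is among its human matches. Its level was 3.72 and 0.658 CPM in lacZ, 14.8 and 7.07 CPM in Neurog and 2.00 and 3.33 CPM in Neurog:WRPW. The lacZ libraries lay 5.65-fold apart and enclosed both Neurog:WRPW libraries. This gene rose 5.03-fold in Neurog vs. lacZ (LogFC 2.33, standard error 0.88, adjusted p = 0.707 by edgeR), a call lost without lacZ replicate 2 (1.56) or without Neurog replicate 1 (1.74), while without lacZ replicate 1 the LogFC was 4.06. Its LogFC in Neurog:WRPW vs. lacZ was 0.28 (standard error 0.86), and the direction turned without lacZ replicate 2 (-0.49) and without Neurog:WRPW replicate 2 (-0.11). Between Neurog and Neurog:WRPW the LogFC of 2.05 (standard error 0.88, unadjusted p = 0.0558 by edgeR) did not pass. It passed at 1.84 with the block, and at 2.05 (standard error 0.62) without lacZ replicate 1 or 2.

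*Calcr* is the only receptor of the secretin-like class among the 7, with human matches CALCR, CALCRL and PTH1R, the receptors for calcitonin, its related peptides and parathyroid hormone. Its level was 5.55 and 0.790 CPM in lacZ, 72.6 and 37.1 CPM in Neurog and 3.53 and 1.22 CPM in Neurog:WRPW. In each group the library numbered 1 was above that numbered 2, by 7.03-fold in lacZ, and the ranges of lacZ and Neurog:WRPW overlapped. The rise in Neurog vs. lacZ was 17.4-fold (LogFC 4.13, standard error 0.98, adjusted p = 0.458 by edgeR). It passed the rule with each library left out, at 3.30 to 6.125. Against lacZ the LogFC in Neurog:WRPW was -0.34 (standard error 0.92), which became 1.65 without lacZ replicate 1 and 0.18 without Neurog:WRPW replicate 2, so no direction can be given. The LogFC between Neurog and Neurog:WRPW was 4.47 (standard error 1.00) and passed.

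*Nmur* is named for the receptors of neuromedin U, a peptide that acts on gut muscle and on feeding in mammals, and its human matches are CCKBR, GHSR and NTSR1. It had 17 and 24 counts in lacZ, 162 and 59 counts in Neurog and 0 counts in both Neurog:WRPW libraries. These counts correspond to 0.944 and 1.05 CPM in lacZ and 8.81 and 3.31 CPM in Neurog. *Nmur* was therefore low but closely matched in the control libraries and was not detected with the repressor, where 0 counts allow up to 0.158 CPM in replicate 1 and 0.333 CPM in replicate 2 (3 counts, for counting error only). It rose 6.03-fold in Neurog vs. lacZ (LogFC 2.59, standard error 0.78, adjusted p = 0.597 by edgeR). That call was lost without lacZ replicate 1 (2.53), without lacZ replicate 2 (2.67) and without Neurog replicate 1 (1.77). Folds against a floor of 3 counts leave out the counting error of the lacZ and Neurog counts and the spread between libraries. With that floor over both Neurog:WRPW libraries, *Nmur* was 9.36-fold lower there than in lacZ and 56.8-fold lower than in Neurog. Both differences passed the rule with every library left out, with an adjusted p of 1.00 and 0.0963 by edgeR.

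The *CCKLR* match takes its name from the receptors of *Drosophila* for sulfakinins, relatives of the gut and brain peptide cholecystokinin, and its human matches are CCKAR, CCKBR and the orexin receptor HCRTR2. Its level was 1.89 and 2.81 CPM in lacZ, 3.59 and 15.1 CPM in Neurog and 1.58 and 0.667 CPM in Neurog:WRPW. Unlike for the *RXFP1* match, *Calcr* and *Nmur*, the higher Neurog library was replicate 2, 4.205-fold above replicate 1. The rise in Neurog vs. lacZ of 3.96-fold (LogFC 1.99, standard error 0.82, adjusted p = 0.784 by edgeR) rested on that library, since without Neurog replicate 2 the LogFC was 0.61. The call was also lost without lacZ replicate 1 (1.77) or 2 (2.30). In Neurog:WRPW vs. lacZ the LogFC was -1.02 (standard error 0.83) and did not pass. Neurog and Neurog:WRPW differed by a LogFC of 3.005 (standard error 0.86), past the rule but not without Neurog replicate 2 (1.63) or without Neurog:WRPW replicate 2 (2.56).

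The *GNRHR* match resembles the receptor for gonadotropin-releasing hormone, the peptide that controls reproduction in vertebrates, with the vasopressin receptor AVPR1A and the neuropeptide S receptor NPSR1 among its human matches. Its level was 3.39 and 2.15 CPM in lacZ, 5.49 and 7.35 CPM in Neurog and 2.27 and 0.111 CPM in Neurog:WRPW. The groups lacZ and Neurog did not overlap, but the difference was the smallest of the 7 at 2.32-fold (LogFC 1.21, standard error 1.01, unadjusted p = 0.274 by edgeR) and did not pass the rule. It passed at 1.21 when the fit held only the libraries of lacZ and Neurog. The lowest value was a single count in Neurog:WRPW replicate 2, whose 95% Poisson interval was 0.00281 to 0.619 CPM for counting error only. In Neurog:WRPW vs. lacZ the LogFC was -1.14 (standard error 1.04) and did not pass, and without Neurog:WRPW replicate 1 it was -4.55 and passed. Between Neurog and Neurog:WRPW the LogFC of 2.35 (standard error 1.06, unadjusted p = 0.0667 by edgeR) missed the rule. It met the rule with the block (2.72) and without Neurog:WRPW replicate 1 (5.76). Without that library many more of all genes tested passed too, downward in Neurog:WRPW vs. lacZ and upward in Neurog vs. Neurog:WRPW.

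*Gpr22*, the orphan receptor whose NPxxY codons are shown above, differed by at most 1.65-fold between the replicates of a group. Its level was 12.8 and 7.76 CPM in lacZ, 57.8 and 47.8 CPM in Neurog and 3.90 and 5.33 CPM in Neurog:WRPW. The 3 groups did not overlap, with Neurog highest and Neurog:WRPW lowest. *Gpr22* rose 5.13-fold in Neurog vs. lacZ (LogFC 2.36, standard error 0.35, adjusted p = 0.207 by edgeR) and passed with each library left out, at 2.04 to 2.79. It fell in Neurog:WRPW, by 1.16 on the log2 scale against lacZ (standard error 0.35, adjusted p = 1.00 by edgeR), but this call was lost without lacZ replicate 1 (-0.74) and without Neurog:WRPW replicate 1 (-0.95). The LogFC between Neurog and Neurog:WRPW was 3.52 (standard error 0.38, adjusted p = 0.0725 by edgeR).

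**Figure D3:**
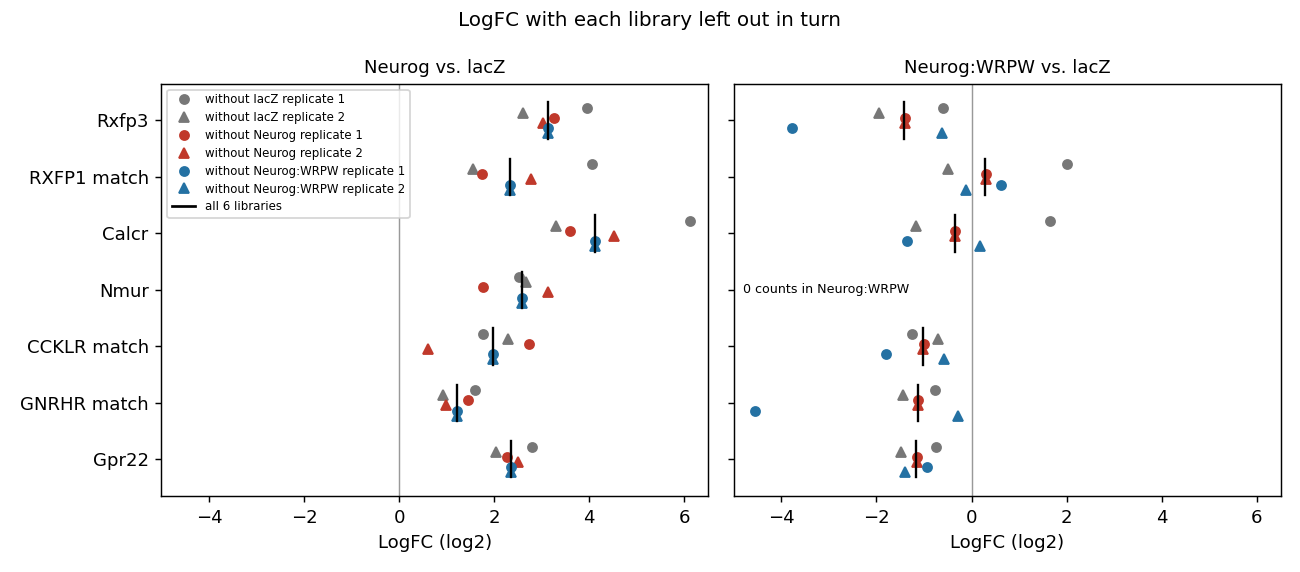
LogFC (log2 scale) of each receptor in Neurog vs. lacZ (left) and Neurog:WRPW vs. lacZ (right) with all 6 libraries (black line) and with each library left out in turn (points, coloured by the group of the library left out, circle for replicate 1 and triangle for replicate 2). In the left panel every point lies above 0, and in the right panel those of *Calcr* run from -1.35 to 1.65 and those of the *RXFP1* match from -0.49 to 2.01.

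Levels per length of the gene model compare genes only roughly, since duplicate reads were ignored and overlapping genes may share reads. By this measure *Rxfp3* was the highest of the 7 in the Neurog libraries, at 75.1 ± 7.06 CPM per kb (SD, n = 2). *Calcr* followed with 31.0 ± 14.2 and *Gpr22* with 24.5 ± 3.26 CPM per kb, and the ranges of these 2 overlapped. The *CCKLR* match (5.62 ± 4.89), the *RXFP1* match (5.43 ± 2.72), *Nmur* (3.19 ± 2.04) and the *GNRHR* match (2.23 ± 0.456) were lower than *Gpr22* in every Neurog library, and each of them overlapped the next in this order. In lacZ the order began with *Rxfp3* (8.60 ± 5.23 CPM per kb) and *Gpr22* (4.77 ± 1.66), which overlapped, and ended with *Nmur* (0.525 ± 0.041), below all the others but for the lower libraries of *Calcr* and the *RXFP1* match. *Calcr* was below *Gpr22* in both lacZ libraries, at 1.79 ± 1.90 CPM per kb. In Neurog:WRPW all 7 were at 3.11 CPM per kb or lower on average.

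Over the 6 libraries the log2(CPM + 1) values of the receptors correlated with each other at a Pearson r of 0.41 (*RXFP1* and *CCKLR* matches) to 0.97 (*Rxfp3* and the *GNRHR* match), which describes how they share the groups and the libraries. Among the genes tested, the pattern most like that of *Gpr22* was of KH.C4.304, with matches to the synaptotagmins SYT4 and SYT11, vesicle proteins (r = 0.998 over 6 libraries). That of *Rxfp3* was of KH.C9.622, which matches RUNX1T1 and DEAF1 (r = 0.999), and that of the *GNRHR* match was of KH.S215.4, which matches the LIM-homeodomain factors LHX3 and LHX4 (r = 0.999). The nearest genes to the *RXFP1* match (KH.C8.212, r = 0.999), *Calcr* (KH.C4.658, r = 0.995), *Nmur* (KH.L18.119, r = 0.998) and the *CCKLR* match (KH.S2067.1, r = 0.994) have no name here. With 6 libraries in 3 groups such likeness is common, since 110 to 549 genes had an r over 0.9 with each receptor.

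Of 12 more genes that match peptide receptors, 5 rose in Neurog vs. lacZ and none fell, where 4.36% of the genes tested passed upward. The median LogFC of the 12 was 1.73, beside -0.03 over all genes tested. The 5 that rose were *Galr*, which matches the galanin receptor, *Tacr*, a tachykinin receptor, *Cxcr4-related*, and the matches to SSTR2 (KH.C11.495) and GALR2 (KH.C4.402). *Galr* was at 27.1 and 8.47 CPM in lacZ, 221 and 43.1 CPM in Neurog and 11.1 and 4.56 CPM in Neurog:WRPW, a rise with a LogFC of 2.90 (standard error 0.94) in which the Neurog libraries lay far apart. Some of this list have matches like those of the 7 receptors. The matches to RXFP1 and RXFP2 had LogFCs of 1.35 (KH.C9.37, standard error 1.41) and 0.91 (KH.L63.25, standard error 0.45), the match to CCKAR 1.00 (KH.C2.865, standard error 0.83) and the second match to NMUR 0.74 (KH.C2.569, standard error 1.306), and none of these passed. In Neurog:WRPW vs. lacZ the median LogFC of the 12 was -0.38, beside -0.02 over all genes tested. There *Tacr* (LogFC -1.80, standard error 0.72) and *Cxcr4-related* (-2.26, standard error 0.78) fell, 2 of the 12, where 1.19% of the genes tested passed downward. That count was 0 without lacZ replicate 1. Leaving out Neurog:WRPW replicate 1 or 2 gave 0 and 1, respectively. With the block 6 of the 12 rose in Neurog, with KH.C9.885, a match to the oxytocin receptor OXTR, added at 0.98. In Neurog:WRPW 3 fell with the block, with *Galr* added at -1.13. Of all genes tested, 6.64% passed upward in the former comparison with the block and 3.55% downward in the latter. This list and those that follow come, but for KH.C1.612, from tables that were ordered or chosen by change in these libraries, and are not independent evidence of a direction.

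Receptors of this kind answer to peptides that other cells cut from precursors and release from dense core vesicles. Of 6 genes for such peptides and the proteins that process and release them, 5 rose in Neurog vs. lacZ and none fell. Upward, 4.36% of the genes tested passed. The median LogFC of the 6 was 2.08, beside -0.03 over all genes tested. The peptide precursor *Galanin* had 17 and 9 counts in lacZ, 94 and 600 counts in Neurog and 4 and 2 counts in Neurog:WRPW, with a LogFC of 4.86 (standard error 1.03) against lacZ. *LF*, a tunicate neuropeptide gene, rose with a LogFC of 1.60 (standard error 0.35). It alone of the 6 passed the rule downward in Neurog:WRPW (-1.47, standard error 0.36), where 1.19% of the genes tested did. The match to the prohormone convertase PCSK2 (3.01, standard error 1.13), the carboxypeptidase *Cpe* (2.53, standard error 0.69) and *Cadps*, which primes dense core vesicles (1.63, standard error 0.62), also rose, while the match to the amidating enzyme PAM had 0.74 (standard error 0.31) and did not pass. Against lacZ the LogFC in Neurog:WRPW was below 0 for all 6, with a median of -1.17. It ran from -2.71 (PCSK2 match, standard error 1.16) to -0.07 (PAM match, standard error 0.31). With the block all 6 rose in Neurog vs. lacZ, the PAM match at 0.70. In Neurog:WRPW 3 of the 6 fell with the block, with *Cpe* (-0.71) and the PCSK2 match (-3.06) added to *LF*. Of all genes tested, 6.64% passed upward in Neurog vs. lacZ with the block and 3.55% downward in Neurog:WRPW vs. lacZ. Without Neurog:WRPW replicate 1 more of the 6 fell than with all libraries, as did more of all genes tested.

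G protein-coupled receptors act through G proteins inside the cell. Whether the 7 receptors act through the genes listed here was not tested. Of 14 genes of G protein signalling 9 rose in Neurog vs. lacZ and none fell, where 4.36% of the genes tested passed upward. The median LogFC of the 14 was 1.32, beside -0.03 over all genes tested. Among the 9 were *Gnai-related*, an alpha subunit of the inhibitory kind (LogFC 1.95, standard error 0.45), and the gamma subunit *Gng* (2.55, standard error 0.57). The regulator *Rgs19/20*, which shortens G protein signals (2.01, standard error 0.61), also rose. So did the GRK4/5 match KH.L112.32 (2.00, standard error 0.57) and the arrestin match KH.C1.1125 (1.22, standard error 0.33), of families that switch off activated receptors. KH.C1.612, an alpha subunit not taken from such a table, rose by 0.69 on the log2 scale (standard error 0.28). It lay near both limits of the rule (unadjusted p = 0.0454, adjusted p = 0.765, both by edgeR). In Neurog:WRPW vs. lacZ *Gng* (-1.61, standard error 0.56) and the adenylyl cyclase match KH.C14.320 (-0.81, standard error 0.32) fell, 2 of 14, where 1.19% of the genes tested passed downward. The median of the 14 was -0.69, beside -0.02 over all genes tested. With the block, where 6.64% of all genes passed upward in Neurog vs. lacZ, 13 of the 14 rose there. In Neurog:WRPW vs. lacZ, where 3.55% passed downward with the block, 7 fell, among them *Gnai-related* (-1.01) and *Rgs19/20* (-1.51). The number that fell was 0 without lacZ replicate 1, 5 without Neurog:WRPW replicate 1, 1 without Neurog:WRPW replicate 2, and 5 with DESeq2, edgeR's exact test or no filter on low counts. Without lacZ replicate 2 or Neurog replicate 1, fewer of the 12 peptide receptors, the 6 peptide genes and the 14 G protein genes rose. Fewer of all genes tested passed upward in those settings as well. Downward, fewer of all genes tested passed without lacZ replicate 1 and many more without Neurog:WRPW replicate 1.

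**Figure D4:**
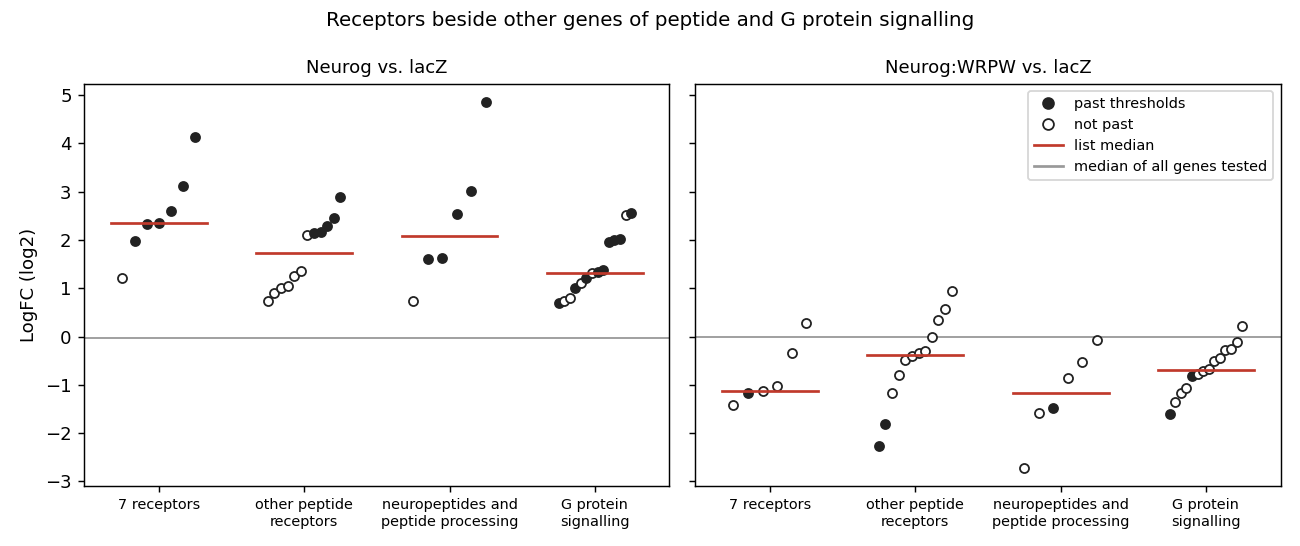
LogFC (log2 scale) of each gene in 4 lists, the 7 receptors, 12 other peptide receptors, 6 genes of neuropeptides and their processing and 14 genes of G protein signalling, in Neurog vs. lacZ (left) and Neurog:WRPW vs. lacZ (right), with filled points past the thresholds, a red line at each list's median and a grey line at the median of all genes tested. On the left all points lie above 0, and on the right most lie below it. *Nmur* is left out on the right, since it had 0 counts in Neurog:WRPW, and is counted in the median.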

How the data were processed

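RNA of sorted cells was amplified with a SMART-Seq v4 kit and sequenced. The authors mapped the reads with STAR 2.5.2b (from the submitters' processing notes) and used featureCounts, with duplicate reads ignored, to count those on exons of KyotoHoya (KH) models. The deposited values are raw counts per gene model and library, with the length of each model in bases, and the replicates were not pooled. For the assembly version and the strand setting, the sources used here give nothing, and reads may be shared between overlapping or antisense genes. Counts are reads without molecular identifiers, and intervals and floors cover counting error only. No genome of these gene models was used, so no positions are given.

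With edgeR 4.0.16 (R 4.3.3), TMM factors were computed for the 12253 genes that had over 1 CPM in 2 or more libraries, and 1 quasi-likelihood model of the 3 groups gave two-sided tests. A call needed a LogFC beyond 0.6 and an unadjusted p under 0.05, the thresholds that the study used, and p-values were adjusted by Benjamini and Hochberg over all genes tested. CPM values carry the TMM factors, and the standard error is the LogFC divided by the root of F. The methods name edgeR and not the test or filter. The procedure was tested on simulated counts. Alternatives were RLE size factors, no filter on low counts, over 1 CPM in at least 3 libraries, DESeq2 1.42.0, edgeR's exact test, only the 2 groups compared, the replicate number as a block, and each library left out. The 7 receptors, the lists and the likeness rule (the highest Pearson r over 6 libraries on log2(CPM + 1)) were chosen with earlier results of these data known. The genes named are the 7 receptors, the members of the 3 lists and the gene most like each receptor. *Neurog* was added as a check of the labels of the Neurog libraries. Probe sequences and the names of human matches come from the study's supplementary tables.

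Replicate numbers are the same in all groups, and no label or method ties a number to a batch or day. Over 7969 genes with a mean over 8 CPM, replicate 1 minus replicate 2 gave a Pearson r of 0.57 for lacZ with Neurog, 0.62 for lacZ with Neurog:WRPW and 0.56 for Neurog with Neurog:WRPW, so the numbers were taken to pair the libraries, a reading that rests on these data alone and was made with the calls known. Of the 7 receptors, only *Calcr* differed in the same direction between replicates 1 and 2 in all 3 groups. For the 7 receptors, values with the block are given where they change a call, and for the lists as counts with examples.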

Additional observations from a re-analysis of the deposited data

How the results depend on the processing

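The number of receptors higher in Neurog vs. lacZ was 6 with all libraries and 2 to 6 with each library left out (2 without lacZ replicate 2), 7 with only the groups compared, and 6 under the other alternatives. The number lower in Neurog:WRPW vs. lacZ was 2, 1 to 3 with each library left out (1 without lacZ replicate 1), 1 with only the groups compared, where *Gpr22* had a LogFC of -1.14, and 3 with the replicate block. The number higher in Neurog vs. Neurog:WRPW was 5, 4 to 6 with each library left out, 6 with no filter on low counts or with only the groups compared, 5 with the other filter or RLE factors, and 7 with the replicate block, DESeq2 or edgeR's exact test. The block changed the calls named in the report (*Rxfp3* at -1.55 in Neurog:WRPW vs. lacZ, and the *RXFP1* match at 1.84 and the *GNRHR* match at 2.72 in Neurog vs. Neurog:WRPW) and no other call of the 7 receptors. Of the LogFCs of the receptors under each alternative, 81 of 91 in Neurog vs. lacZ, 81 in Neurog:WRPW vs. lacZ and 78 in Neurog vs. Neurog:WRPW kept their direction and their side of the rule. A direction turned in 4, all in Neurog:WRPW vs. lacZ, for the *RXFP1* match without lacZ replicate 2 (-0.49) and without Neurog:WRPW replicate 2 (-0.11) and for *Calcr* without lacZ replicate 1 (1.65) and without Neurog:WRPW replicate 2 (0.18), and the cause was not tested. With each library left out in turn, that LogFC ran from -0.49 to 2.01 for the *RXFP1* match and from -1.35 to 1.65 for *Calcr*. A group left with 1 library was assumed to vary like the other groups. The number of all genes tested that passed moved in these settings as well. It fell for increases in Neurog vs. lacZ without lacZ replicate 2, and for decreases in Neurog:WRPW vs. lacZ without lacZ replicate 1. Without Neurog:WRPW replicate 1 it rose for those decreases and for increases in Neurog vs. Neurog:WRPW. In Neurog:WRPW replicate 2 a single count was worth 0.111 CPM, and *Nmur*, with 17 and 24 counts in the lacZ libraries, had the least depth for a decrease.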
